A study of Mus musculus with 16 samples.

Results

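Neurotrophic factors are secreted proteins that neurons and glia use to keep neurons alive, to shape their axons and to adjust their synapses. The neurotrophins, among them brain-derived neurotrophic factor and neurotrophin-3, act through the Trk receptor tyrosine kinases and through the low-affinity neurotrophin receptor p75. Glial cell line-derived neurotrophic factor, ciliary neurotrophic factor, vascular endothelial growth factor A and insulin-like growth factor 1 act mainly through receptors of their own. All of these ligands can support motor neurons, and several have been tried as treatments in amyotrophic lateral sclerosis. The 9 genes described here are the ligands Bdnf, Ntf3, Gdnf, Cntf, Vegfa and Igf1 and the receptors Ntrk2 (TrkB), Ntrk3 (TrkC) and Ngfr (p75). They were measured by every array probe, other than controls, that carried one of these gene names, which gave 18 of 41174 probes, or 9 of 27962 gene names.

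The lumbar spinal cord came from male mice on a B6SJL background, either wild-type or carrying the human SOD1 gene with the G93A mutation (SOD1G93A), at 40 or 80 days of age. Each of the 4 groups (wild-type 40 days, SOD1G93A 40 days, wild-type 80 days, SOD1G93A 80 days) held 4 arrays, described as biological replicates. The whole lumbar cord was taken, so every cell type of the tissue contributed RNA. Cord RNA was labelled with Cy3 and hybridised, without a dye swap, against a Cy5-labelled common reference of neonatal heart, liver and kidney RNA pooled from both genotypes. Values below are log2 ratios of cord to reference for 1 probe unless another scale is named.

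The 16 arrays lay on 4 slides, each with 1 array of every group, and the position on the slide followed the group, so that position and group cannot be told apart. Between 46.1% and 55.3% of probes were well above background in Cy3. All 7 astrocyte and all 7 oligodendrocyte markers and 5 of 7 motor neuron markers passed the filter on dim probes. Markers of tissue around the cord and of microglia differed between arrays. The mean deviation of 7 meningeal fibroblast markers (log2, from their mean over the 16 arrays) ranged from -1.54 on wild-type 40 days replicate 4 and -1.45 on SOD1G93A 40 days replicate 3 to 1.14 on wild-type 80 days replicate 1. That of 10 microglial markers stood at 1.04 on SOD1G93A 80 days replicate 4 and 0.68 on wild-type 80 days replicate 3, against at most 0.18 elsewhere. That of 5 skeletal muscle markers stood at 2.24 on SOD1G93A 40 days replicate 2, the highest of the 16 arrays. On 3 arrays, 72 Cy3 spots with a bright local background were given the array's median background. Of these spots, 63 lay on SOD1G93A 80 days replicate 4, where 49.0% of probes were well above background in Cy3. In a bulk sample, fewer cells of a type and less RNA per cell cannot be told apart.

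The probes are 60-mers, and what each reports depends on where it lies (coordinates are those of the array files, mouse build mm7). The Vegfa probes gave different changes. Probe A_52_P249424 lies in coding sequence. Both others lie downstream of it, A_51_P482552 at chr17:44147967-44148026 and A_52_P638895 at chr17:44146842-44146901, minus strand. The first 30 bases of these others are shown to set them apart and read, 5′ to 3′:
Vegfa A_51_P482552: actggattcgccattttcttatatctgctg
Vegfa A_52_P638895: cagatcggtgacagtcactagcttgtcctg

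Ntrk2 makes a full-length receptor with an intracellular kinase and truncated receptors without it, and its probes are shown because they separate these forms. A_51_P393454, at chr13:58224249-58224308 on the plus strand, is assigned to the full-length transcript variant. A_51_P516012, at chr13:58026995-58027054, is assigned to the truncated variant, and A_51_P516006, at chr13:58027055-58027112, begins at the next base. Their first 30 bases are:
Ntrk2 A_51_P393454: tcaattgatacctatgtgcacgtgtgcaga
Ntrk2 A_51_P516012: gttcaaatatagaatcgaagtgaaatctca
Ntrk2 A_51_P516006: ctgtttgactatacggaaaatgtgctgaca

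The pair of probes named Cntf is shown because only 1 of them lists a transcript of Cntf itself. That is A_51_P378967, placed by the files at chr19:12443625-12443632 on the minus strand, a stretch shorter than the probe. A_52_P578538, at chr19:12451160-12454936, lists only the longer read-through transcript that joins Zfp91 and Cntf. It lies 7527 bases from the first probe, 3.58 times the length of Cntf in RefSeq (GRCm38.p6), on the side of the neighbouring gene Zfp91. It is called the read-through probe below and is not read as a measure of Cntf. The first 30 bases of the Cntf probe and of the read-through probe are:
Cntf A_51_P378967: gaagataaacatggttattctggctgtgca
read-through A_52_P578538: gcatgcaaagcatcatacagaccagaggga

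Of the 18 probes, 14 probes of 7 genes passed the filter, which asked that 3 or more arrays of a group show Cy3 well above background, and were tested in each of 5 comparisons. Gdnf and Ntf3 have 1 probe each, and neither was well above background in cord on any of the 16 arrays. The Cy3 signal of the Gdnf probe A_51_P147777 lay between 41.0 and 48.0 units and that of the Ntf3 probe A_52_P525161 between 40.5 and 47.0 units, over a median local background of 37.0 units for either. Both were well above background in the neonatal reference on all 16 arrays. The Ngfr probe A_51_P384968 was not well above background in cord on any array, and the Igf1 probe A_52_P306327, designed on an unclassified cDNA, was so on 1 array. None of these 4 probes was tested.

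Against the reference, the tested probes of the Trk receptors, Cntf and Bdnf read higher in cord after normalization. The mean ratio of cord to reference over the 16 arrays was 27.5 for A_51_P516006 and 15.6 for A_51_P516012, the probes at the truncated form of Ntrk2, 8.11 for the full-length Ntrk2 probe and 5.13 for the Ntrk3 probe A_52_P55706. It was 4.24 for Cntf A_51_P378967, and 2.20 and 1.35 for the Bdnf probes A_51_P261991 and A_52_P384100. The reference of the second was well above background on 8 of the 16 arrays, so its ratio is uncertain. Ngfr A_52_P236448 stood at 1.19, with single arrays from -0.01 to 0.66 (log2). The untested Ngfr probe A_51_P384968 stood at 0.96. Igf1 and Vegfa read lower in cord than in the reference. The reference was 2.05 and 1.88 times the cord for the Igf1 probes A_51_P147942 and A_52_P536434, and 2.71 to 4.44 times the cord for the 3 Vegfa probes. The offset of 50 units added after background correction draws the ratios of dim probes towards 1, so these ratios do not rank the probes. Before correction and normalization, the median Cy3 signal lay above that of Cy5 for the Ntrk2 probes only. For Ngfr A_52_P236448 it was 83.2 against 424.0 units and for Cntf A_51_P378967 380.75 against 813.5. Without a dye swap, the direction of the ratios of Ntrk3, Cntf, Bdnf and Ngfr thus depends on the normalization.

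At 40 days, 2 of the 14 tested probes were higher in SOD1G93A than in wild-type cord and 0 were lower. Vegfa A_52_P249424 rose 1.17-fold and the full-length Ntrk2 probe 1.13-fold. Over all probes, 4.47% were called at this threshold (limma, unadjusted p under 0.05), 953 of 21336, and 0 passed after Benjamini-Hochberg adjustment (smallest adjusted p 0.998 among the members). At 80 days 1 of 14 was called, the same Vegfa probe, now 1.17-fold lower in SOD1G93A, where 6.86% of all probes were called and 0 passed limma's adjusted threshold (1481 at unadjusted p under 0.05). With 14 probes, counts of this size are not read as a result about the group. The largest change in either comparison was that of Cntf at 40 days, 1.48-fold lower and not called. Its 95% interval ran from -1.38 to 0.24 at 40 days and from -0.89 to 0.27 at 80 days.

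**Figure D1:**
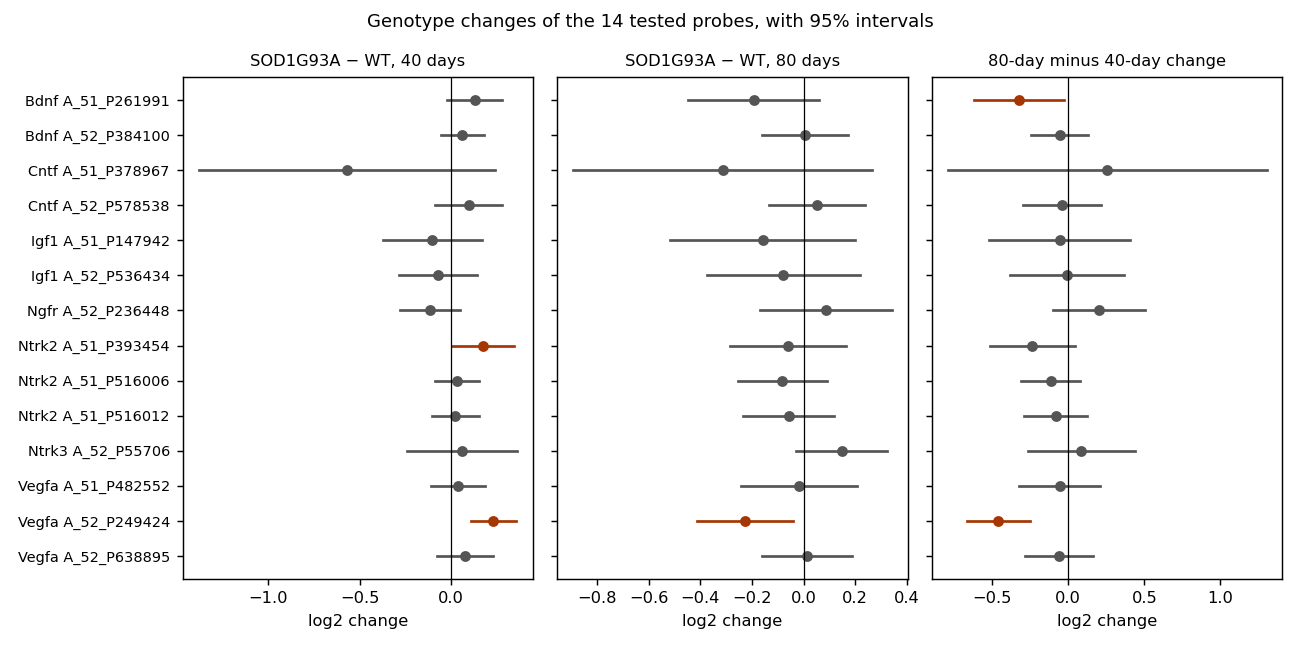
Log2 change of the 14 tested probes (rows) in SOD1G93A against wild-type cord at 40 days and at 80 days, and the difference between these changes. Points are estimates, lines 95% intervals, and colour marks an unadjusted limma p under 0.05. Vegfa A_52_P249424 stands at 0.23, -0.23 and -0.46 in the 3 panels, and Cntf A_51_P378967 has the widest intervals.

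Vegfa encodes a growth factor of blood vessels that also acts on motor neurons. At 40 days, A_52_P249424 read -2.33, -2.16, -2.25 and -2.20 on the wild-type arrays and -2.01, -2.06, -2.00 and -1.95 on the SOD1G93A arrays. Every SOD1G93A array lay above every wild-type array. The probe is printed as 1 spot and is dim, with a median Cy3 signal of 89.0 units in wild-type and 103.0 in SOD1G93A at 40 days. Its median local background over the 16 arrays was 35.75 units. Groups lay apart, in either direction, for 2.86% of all probes tested at this age. The change was 0.23 ± 0.06 (SE, limma p = 0.00191, adjusted p = 0.998, exact permutation p = 0.0286, the smallest that 4 against 4 arrays allow).

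At 80 days the same probe read -2.06, -2.09, -1.86 and -2.28 in wild-type and -2.35, -2.27, -2.28 and -2.29 in SOD1G93A. The groups overlapped through wild-type replicate 4. The change was -0.23 ± 0.08 (SE, limma p = 0.0209, adjusted p = 0.690, exact permutation p = 0.0571) and was negative on all 4 slides. Without wild-type replicate 3 it was -0.16 and without SOD1G93A replicate 1 -0.21, and in neither case was it called.

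The genotype change of A_52_P249424 differed between the ages by -0.46 ± 0.10 (SE, limma p = 0.000271, adjusted p = 0.496, exact permutation p = 0.000816), and the difference was negative on each of the 4 slides, from -0.67 to -0.27. It was 1 of 2 members called for a difference between the ages, where 6.68% of all probes were called. The probe is also in the study's own gene lists at both ages, which were drawn from these arrays, so its calls are not independent evidence. In order, its group means were -2.30 ± 0.03 in SOD1G93A at 80 days, -2.23 ± 0.07 in wild-type at 40 days, -2.07 ± 0.17 in wild-type at 80 days and -2.00 ± 0.05 in SOD1G93A at 40 days (SD, n = 4). Neighbouring groups in that order overlapped.

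Some astrocyte markers also differed between the groups. Of 7, 3 (Gfap, S100b and Slc1a3) were called higher in SOD1G93A at 40 days, 0 were called at 80 days, and the same 3 were called lower for the difference between the ages, with median changes of 0.19, -0.06 and -0.30. Over all probes 4.47%, 6.86% and 6.68% were called in these comparisons. At 40 days, 3 of 7 oligodendrocyte and 2 of 10 microglial markers were also called higher and 0 lower, with median changes of 0.16 and 0.01. The mean deviation of the astrocyte markers ran from -0.11 to 0.02 in wild-type and from -0.00 to 0.21 in SOD1G93A at 40 days, and from -0.07 to 0.13 and from -0.17 to 0.13 at 80 days. Over the 16 arrays Vegfa A_52_P249424 correlated with them at r = 0.53 and rho = 0.47 (permutation p = 0.0378 and 0.0691, adjusted p = 0.278 and 0.421). This r was 0.38 without the 2 arrays farthest from the median of the markers, 0.17 within groups and 0.81 within slides. For A_51_P482552 and A_52_P638895 the r with the astrocyte markers was 0.41 and 0.17. With 5 motor neuron markers, A_52_P638895 correlated at r = -0.71 and rho = -0.67 (permutation p = 0.00194 and 0.00535, adjusted p = 0.0577 and 0.187). There r was -0.62 for A_51_P482552 and -0.26 for A_52_P249424. The part of either cell type in the Vegfa values was not tested.

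The other Vegfa probes were not called for genotype. A_51_P482552, printed as 10 spots, changed by 0.04 (95% interval -0.11 to 0.19) at 40 days and by -0.02 (-0.24 to 0.21) at 80 days. A_52_P638895 changed by 0.08 (-0.08 to 0.23) and 0.01 (-0.16 to 0.19). The difference between the ages was more negative in A_52_P249424 than in A_52_P638895 by 0.40 (exact permutation p = 0.00122, adjusted p = 0.0551) and than in A_51_P482552 by 0.40 (exact permutation p = 0.00327, adjusted p = 0.0735). The adjustment covered 45 comparisons between probes of 1 gene, and none passed it. With local backgrounds as deposited, neither genotype change of A_52_P249424 was called (0.21 and -0.19), nor without normalization within arrays (0.08 and -0.09), where the difference between the ages, -0.17, was not called either. Without that normalization the median of all probes also moved, in the same direction as these values, as given at the end. The same holds for the other values without normalization within arrays given below.

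**Figure D2:**
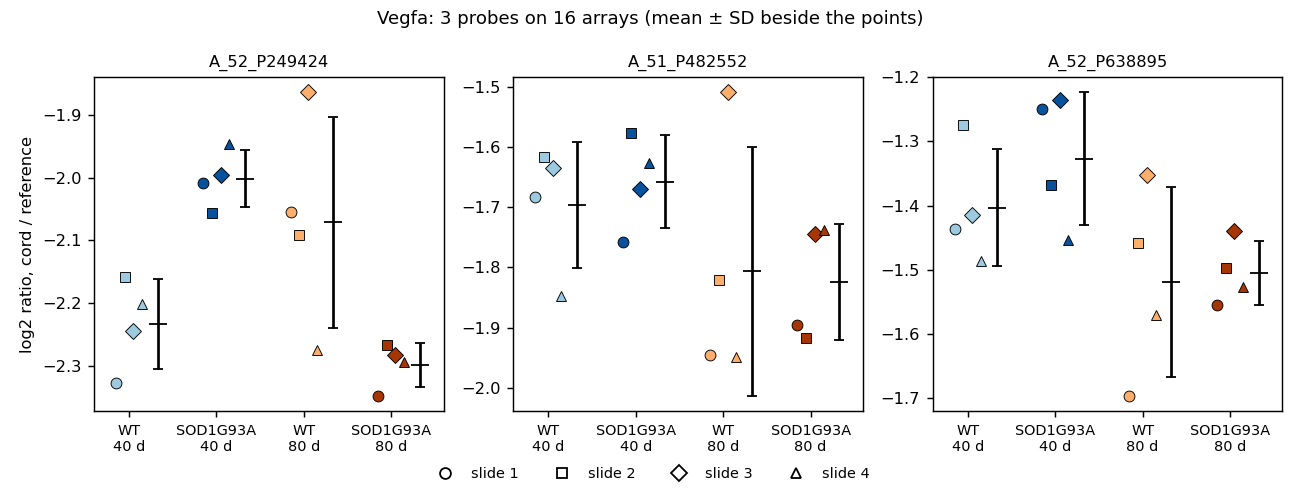
Log2 ratio of cord to reference for the 3 Vegfa probes on each of the 16 arrays, by group. The marker shape gives the slide, and the black bar is the mean with its SD (n = 4). In A_52_P249424 the 4 SOD1G93A arrays of 40 days, from -2.06 to -1.95, lie above all wild-type arrays of that age.

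TrkB, the product of Ntrk2, is the receptor of brain-derived neurotrophic factor. The full-length probe A_51_P393454 read 3.02, 2.83, 2.79 and 3.08 in wild-type and 3.16, 3.06, 3.03 and 3.16 in SOD1G93A at 40 days. Wild-type replicates 1, 2 and 3 lay below every SOD1G93A array, and replicate 4 lay within their range. The change was 0.17 ± 0.08 (SE, limma p = 0.0443, adjusted p = 0.998, exact permutation p = 0.114) and was positive on all 4 slides, though it was -0.0076 without normalization within arrays. At 80 days it was -0.06 (95% interval -0.29 to 0.16). The difference between the ages, -0.24, gave limma p = 0.0906 and exact permutation p = 0.110, and was called with the slide as a block (limma p = 0.0224). The call at 40 days was lost without wild-type replicate 2 or 3 or SOD1G93A replicate 1, 2 or 4 (changes of 0.13 to 0.19, limma p from 0.0574 to 0.124).

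The probes at the truncated form spread less. A_51_P516006 lay between 4.65 and 4.98 and A_51_P516012 between 3.81 and 4.16 over the 16 arrays. Their genotype changes were 0.03 and 0.02 at 40 days and -0.08 and -0.06 at 80 days, with 95% intervals that lay within -0.25 to 0.15. The 40-day changes of A_51_P516012 and of the full-length probe differed by -0.15 (exact permutation p = 0.114). TrkC, the receptor of neurotrophin-3, was measured by Ntrk3 A_52_P55706. It read 2.26 ± 0.29 and 2.33 ± 0.15 at 40 days and 2.35 ± 0.14 and 2.49 ± 0.08 at 80 days in wild-type and SOD1G93A (SD, n = 4). Its genotype changes were 0.06 (limma p = 0.664, exact permutation p = 0.714) and 0.15 (limma p = 0.0944, exact permutation p = 0.171).

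Bdnf, the ligand of TrkB, had a pair of probes 2207 bases apart. A_51_P261991, in coding sequence at chr2:109574833-109574892 and printed as 10 spots, is shown because it was called:
Bdnf A_51_P261991: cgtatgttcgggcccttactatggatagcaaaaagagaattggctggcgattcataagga

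It read 0.97, 0.92, 1.14 and 1.07 in wild-type and 1.21, 1.24, 1.09 and 1.07 in SOD1G93A at 40 days. At 80 days it read 1.37, 1.17, 1.60 and 0.99 in wild-type and 1.14, 1.14, 1.03 and 1.04 in SOD1G93A. The wild-type arrays of 80 days spanned more than all arrays of the other groups, and the genotypes overlapped at both ages. The genotype changes were 0.13 (limma p = 0.0808, exact permutation p = 0.114) and -0.19 (limma p = 0.122, exact permutation p = 0.286), and they differed by -0.32 ± 0.14 (SE, limma p = 0.0333, adjusted p = 0.725, exact permutation p = 0.0380). That call was lost when any of 8 single arrays was left out (wild-type 40 days 1 or 2, SOD1G93A 40 days 1 or 2, wild-type 80 days 1 or 3, SOD1G93A 80 days 3 or 4), with values from -0.31 to -0.22 and limma p from 0.0553 to 0.0723. It was also lost without normalization within arrays, where the value was -0.02, with local backgrounds as deposited (-0.37) and with array weights (-0.24). The second probe, A_52_P384100, was dimmer, at 52.0 to 63.0 units of Cy3, and its genotype changes differed between the ages by -0.06 (limma p = 0.535, exact permutation p = 0.509).

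With age, 2 member probes rose in wild-type cord, where 15.1% of all probes were called, and in SOD1G93A cord 1 rose and 2 fell, where 16.9% were called. In wild-type, Bdnf A_51_P261991 rose by 0.26 ± 0.10 (SE, limma p = 0.0180, adjusted p = 0.219, exact permutation p = 0.114), and Vegfa A_52_P249424 by 0.16 ± 0.07 (SE, limma p = 0.0345, adjusted p = 0.283, exact permutation p = 0.143). The Bdnf call was lost without wild-type 40 days replicate 2 or wild-type 80 days replicate 1 or 3 (0.15 to 0.23, limma p from 0.0505 to 0.0832), and the Vegfa call without wild-type 40 days replicate 1 or 3 or wild-type 80 days replicate 1 or 3 (0.09 to 0.16, limma p from 0.0612 to 0.156). Without normalization within arrays the rises were 0.06 for Bdnf and 0.02 for Vegfa, and with array weights 0.19 and 0.14, and none of these was called. The Vegfa call was also lost with local backgrounds as deposited (0.04), with Cy3 alone (0.13) and with the arrays of reset backgrounds left out (0.16). Bdnf A_52_P384100 changed by 0.13 (limma p = 0.0514, exact permutation p = 0.171, and limma p = 0.0390 with the slide as a block).

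In SOD1G93A cord, Vegfa A_52_P249424 fell by 0.30 ± 0.07 between 40 and 80 days (SE, limma p = 0.000613, adjusted p = 0.0515, exact permutation p = 0.0286). All 4 arrays of 80 days lay below all 4 of 40 days, and 12.4% of all probes had groups that lay apart. Without normalization within arrays the change was -0.15 and was not called. Vegfa A_52_P638895 fell by 0.18 ± 0.07 (SE, limma p = 0.0285, adjusted p = 0.238, exact permutation p = 0.0571). That call was lost without SOD1G93A 40 days replicate 1 or 3 or SOD1G93A 80 days replicate 1 or 4 (-0.17 to -0.15, limma p from 0.0548 to 0.0857), and without normalization within arrays (-0.06). The third probe, A_51_P482552, changed by -0.17 (limma p = 0.0790, exact permutation p = 0.0857).

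Ngfr encodes p75, which binds every neurotrophin and is found on Schwann cells and on some sensory and cholinergic neurons. Probe A_52_P236448, printed as 10 spots and placed at chr11:95677936-95677995 on the minus strand, was the receptor probe called with age and begins with:
Ngfr A_52_P236448: tccagctggcgactatgagatccagacctc

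It read 0.02, 0.08, -0.01 and 0.16 in SOD1G93A at 40 days and 0.47, 0.33, 0.48 and 0.42 at 80 days, so that the ages did not overlap. In this comparison the groups lay apart, in either direction, for 12.4% of all probes tested. The rise of 0.36 ± 0.10 (SE, limma p = 0.00248, adjusted p = 0.0936, exact permutation p = 0.0286) was called under all 27 alternatives of processing and left-out arrays, from 0.26 to 0.59. Among these, leaving out a wild-type array could alter only the shared spread and not the rise itself. In wild-type the probe read 0.24, 0.17, 0.30 and -0.00 at 40 days and 0.66, 0.15, 0.11 and 0.43 at 80 days, overlapping, with a change of 0.16 (limma p = 0.133, exact permutation p = 0.371). The age changes of the genotypes were not shown to differ (0.20, 95% interval -0.10 to 0.51, limma p = 0.177, exact permutation p = 0.198). In SOD1G93A the 7 meningeal markers ranged from -1.45 to 0.27 at 40 days and from -0.27 to 0.52 at 80 days. The 7 oligodendrocyte markers ranged from 0.10 to 0.41 and from -0.20 to -0.06, so that the ages lay apart, and 4 of them were called lower at 80 days. In wild-type they also fell, from between -0.10 and 0.23 to between -0.33 and -0.01, and 3 were called lower. Over all probes 16.9% were called with age in SOD1G93A and 15.1% in wild-type. Over the 16 arrays Ngfr correlated with the meningeal markers at r = 0.62 and rho = 0.61 (permutation p = 0.0100 and 0.0149, adjusted p = 0.158 and 0.254). With the oligodendrocyte markers it correlated at r = -0.62 and rho = -0.61 (permutation p = 0.0117 and 0.0148, adjusted p = 0.158 and 0.254). Within groups r was 0.68 and -0.12, within slides 0.63 and -0.71, and without the 2 arrays farthest from the median of the markers 0.42 and -0.63. With 5 motor neuron markers r was 0.57 and rho 0.51 (permutation p = 0.0204 and 0.0443, adjusted p = 0.218 and 0.365). With 2 erythrocyte markers they were 0.57 and 0.37 (permutation p = 0.0190 and 0.157, adjusted p = 0.218 and 0.536). The part of these cells in the rise was not tested.

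**Figure D3:**
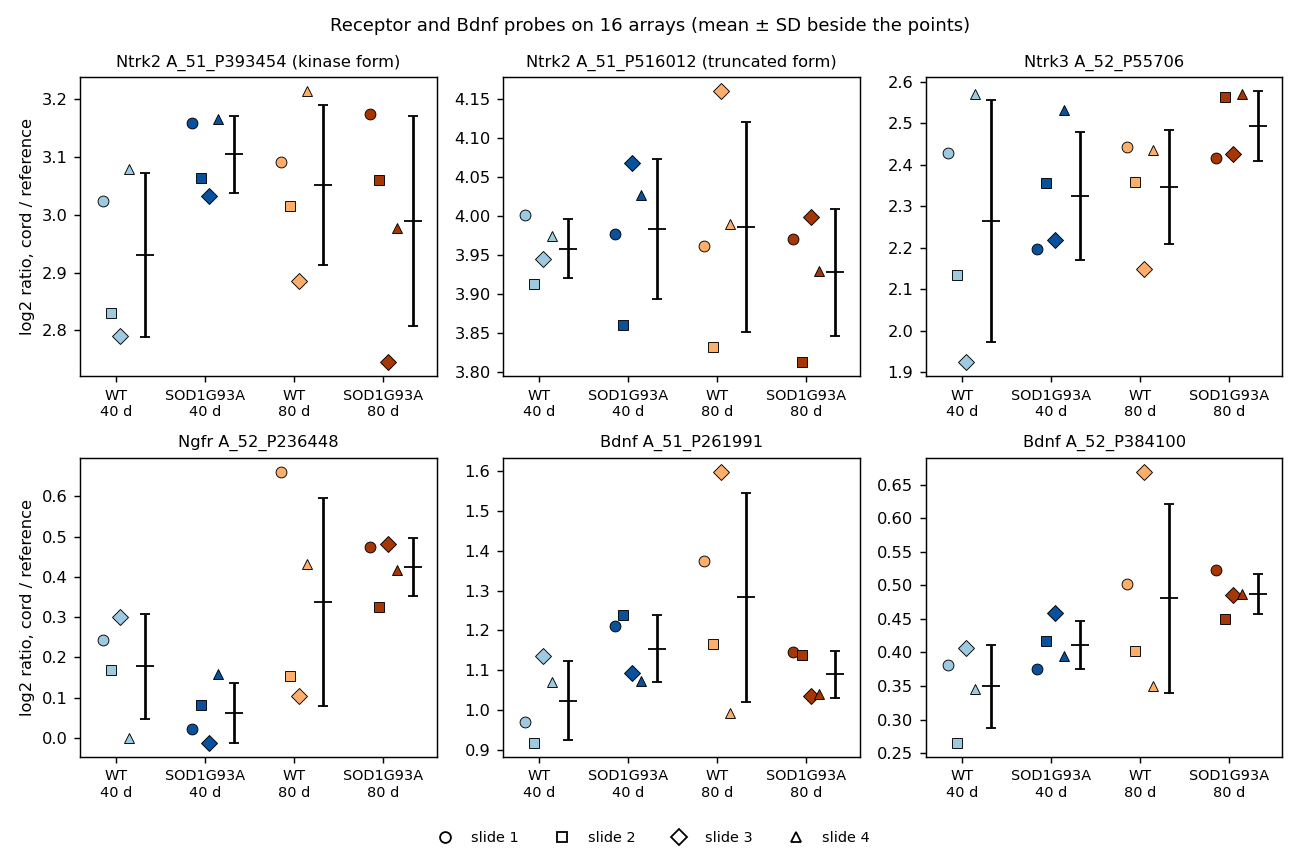
Log2 ratio of cord to reference for receptor and Bdnf probes on each of the 16 arrays, by group. The marker shape gives the slide and the black bar is the mean with its SD (n = 4). Ngfr in SOD1G93A lies between -0.01 and 0.16 at 40 days and between 0.33 and 0.48 at 80 days, and Bdnf A_51_P261991 spreads most in wild-type at 80 days.

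Ciliary neurotrophic factor is made by Schwann cells and by some astrocytes, and its probe varied most of all members. A_51_P378967 read 2.38, 2.94, 2.53 and 1.05 in wild-type and 1.72, 1.66, 1.09 and 2.15 in SOD1G93A at 40 days. At 80 days it read 3.19, 2.07, 1.89 and 2.41 in wild-type and 2.55, 2.02, 1.92 and 1.80 in SOD1G93A. Genotypes overlapped at both ages, and the Cy3 signal ran from 187.5 to 882.5 units, above a median local background of 37.5 units. The genotype changes were -0.57 ± 0.36 at 40 days (SE, limma p = 0.149, exact permutation p = 0.257) and -0.31 ± 0.26 at 80 days (SE, limma p = 0.255, exact permutation p = 0.429). The second was called with the slide as a block.

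The 40-day counts moved most without 1 array, wild-type 40 days replicate 4. Of the 16 arrays, that array had the lowest share of probes well above background in Cy3 (46.1%) and the most outlier spots (301). Without it, the change of Cntf was -0.96 and was called, and 6 member probes and 1893 of all probes were called at 40 days in place of 2 and 953. The other probes gained were Igf1 A_51_P147942 (-0.24) and A_52_P536434 (-0.17) and Ngfr A_52_P236448 (-0.17).

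Cntf varied with markers of tissue that surrounds the cord. The arrays with the lowest Cntf, wild-type 40 days replicate 4 (1.05) and SOD1G93A 40 days replicate 3 (1.09), had the lowest meningeal fibroblast markers (-1.54 and -1.45). The array with the highest Cntf, wild-type 80 days replicate 1 (3.19), had the highest meningeal markers (1.14). Over the 16 arrays, Cntf correlated with the meningeal markers (Col1a1, Col1a2, Col3a1, Dcn, Lum, Ogn and Slc6a13) at Pearson r = 0.97 and Spearman rho = 0.96 (permutation p = 1e-05 for both, the smallest that 100000 resamples can give, adjusted p = 0.0014). Without the 2 arrays farthest from the median of the markers r was 0.94, within groups 0.97, and within slides 0.96.

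Of 140 relations (14 probes by 10 marker lists), 2 passed the adjusted threshold, both of Cntf and this among them. The read-through probe A_52_P578538 lay between 0.01 and 0.48 on the same arrays, and its genotype changes were 0.10 (limma p = 0.271, exact permutation p = 0.514) and 0.05 (limma p = 0.542, exact permutation p = 0.571). Meningeal markers averaged 0.22 ± 1.19 in wild-type and -0.52 ± 0.73 in SOD1G93A at 40 days, and 0.25 ± 0.62 and 0.05 ± 0.33 at 80 days (SD, n = 4), lower in SOD1G93A on average at either age, as Cntf was. Their part in the genotype changes of Cntf was not tested.

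**Figure D4:**
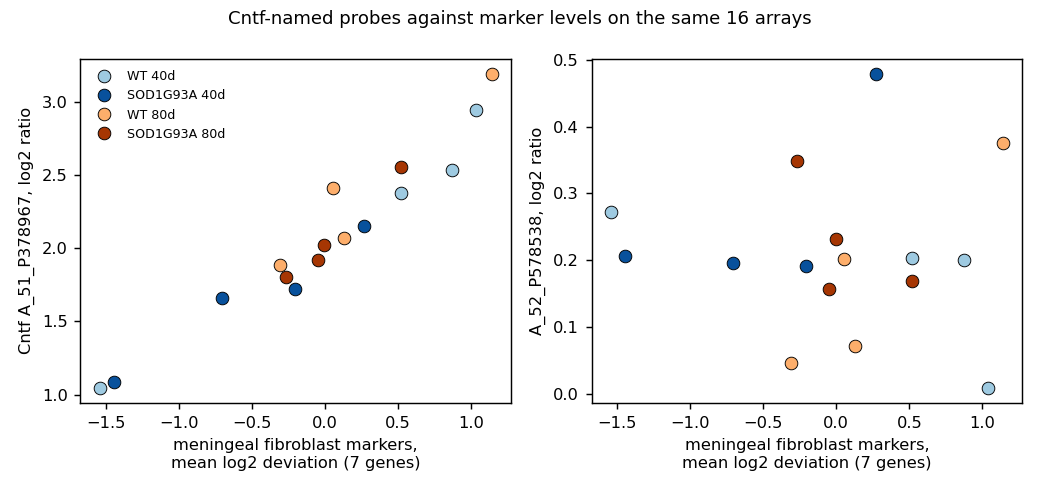
Log2 ratio of the Cntf probe A_51_P378967 and of the read-through probe A_52_P578538 against the mean deviation (log2) of meningeal fibroblast markers, with 1 point for each of the 16 arrays, by group. Cntf rises with the marker level (r = 0.97), and both lowest Cntf points are arrays of 40 days.

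Insulin-like growth factor 1 is made in the cord by microglia, among other cells, and is a survival factor for motor neurons. Probe A_51_P147942 read -1.03, -0.86, -0.87 and -1.46 in wild-type and -1.11, -1.20, -1.23 and -1.10 in SOD1G93A at 40 days. At 80 days it read -0.80, -1.13, -0.57 and -1.05 in wild-type and -1.22, -1.22, -1.16 and -0.59 in SOD1G93A. The groups overlapped at both ages, with changes of -0.10 (limma p = 0.420, exact permutation p = 0.543) and -0.16 (limma p = 0.346, exact permutation p = 0.429). The 80-day change was -0.31 and called without SOD1G93A replicate 4, the array at -0.59. The second probe, A_52_P536434, changed by -0.07 (limma p = 0.480, exact permutation p = 0.514) and -0.08 (limma p = 0.569, exact permutation p = 0.686).

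Both Igf1 probes were highest on the arrays with the highest microglial markers. Wild-type 80 days replicate 3 read -0.57 and -0.51 and SOD1G93A 80 days replicate 4 read -0.59 and -0.55, where the 10 microglial markers stood at 0.68 and 1.04. The second of these arrays held 63 of the 72 Cy3 spots with reset backgrounds. Over the 16 arrays the correlation with the microglial markers was r = 0.69 and rho = 0.31 for A_51_P147942 (permutation p = 0.00456 and 0.234, adjusted p = 0.0912 and 0.631), and r = 0.75 and rho = 0.29 for A_52_P536434 (permutation p = 0.00377 and 0.268, adjusted p = 0.0880 and 0.658). Without the 2 arrays farthest from the median, r was -0.00 and 0.09, so the relation rests on those arrays. The list of sensory neuron markers, of which 2 passed the filter, correlated with A_51_P147942 at r = 0.72 and rho = 0.70 (permutation p = 0.00191 and 0.00314, adjusted p = 0.0577 and 0.147) and with A_52_P536434 at r = 0.72 and rho = 0.63 (permutation p = 0.00206 and 0.0101, adjusted p = 0.0577 and 0.236). Without the 2 arrays farthest from the median, r was 0.63 and 0.63. The part of either cell type in the Igf1 values was not tested.

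**Figure D5:**
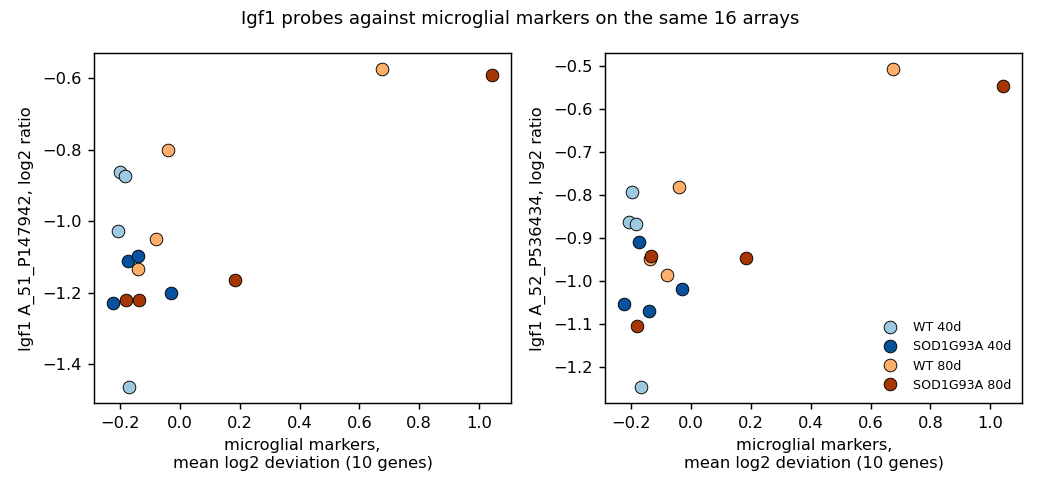
Log2 ratio of the Igf1 probes against the mean deviation (log2) of 10 microglial markers, with 1 point for each of the 16 arrays, by group. The arrays with marker levels of 0.68 and 1.04 carry the highest Igf1 values in each panel, from -0.59 to -0.51.

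Around the members, 14 further ligands, 22 further receptors, 6 insulin-like growth factor binding proteins, 40 signal transduction genes and 8 genes induced by neurotrophic signaling were tested at 40 days, and 0 were called at an unadjusted limma p under 0.05. Over all probes 4.47% were called at this age. The largest change of each list was -0.23 for the cytokine Il11 (limma p = 0.403, exact permutation p = 0.886), 0.13 for the hepatocyte growth factor receptor Met (limma p = 0.0879, exact permutation p = 0.143), -0.36 for Igfbp6 (limma p = 0.0562, exact permutation p = 0.143), -0.17 for the adaptor Traf6 (limma p = 0.147, exact permutation p = 0.343) and 0.15 for Spry2, an inhibitor of receptor tyrosine kinase signaling (limma p = 0.0777, exact permutation p = 0.114). The list medians lay between -0.16 and 0.05, and that of all probes tested was 0.00.

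At 80 days, 1 of 14 ligands, 2 of 22 receptors and 1 of 9 induced genes were higher in SOD1G93A, and no gene of the 5 lists was lower at this threshold. Over all probes 6.86% were called at this age, so these counts are not read as a result about the lists. Nrg1, the neuregulin ligand of the ErbB receptors, read 1.40 ± 0.16 in wild-type and 1.65 ± 0.08 in SOD1G93A (SD, n = 4, limma p = 0.0157, exact permutation p = 0.0286). Sort1, or sortilin, a partner of p75 for unprocessed neurotrophins, read 0.13 ± 0.05 and 0.32 ± 0.06 (SD, n = 4, limma p = 0.00795, exact permutation p = 0.0286). Lingo1, a co-receptor of p75, was higher by 0.21 (limma p = 0.0378, exact permutation p = 0.114) and the activity-induced gene Arc by 0.34 (limma p = 0.0288, exact permutation p = 0.0857). Their limma adjusted p-values lay between 0.668 and 0.716.

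None of the 40 signal transduction genes was called at 80 days. Their median change was 0.02, and the largest was -0.50 for Stat3 (limma p = 0.149, exact permutation p = 0.286), the transcription factor behind the receptor of ciliary neurotrophic factor. Between the ages the genotype change was called different for Nrg1 (by 0.24, adjusted p = 0.741) and for Sort1 (by 0.24, adjusted p = 0.602, limma). Over all probes 6.68% were called for this difference.

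With age, 2 of the 22 further receptors rose and 3 fell in wild-type, and 1 rose and 2 fell in SOD1G93A. Of the 40 signal transduction genes, 0 rose and 5 fell in wild-type, and 3 rose and 7 fell in SOD1G93A. Over all probes 15.1% were called in wild-type and 16.9% in SOD1G93A, so these counts are not read as a result about the lists. Erbb3, a neuregulin receptor of the oligodendrocyte and Schwann cell lineages, fell by 0.54 (adjusted p = 0.00680) and by 0.56 (adjusted p = 0.00578, limma). Sorcs2, a receptor of unprocessed neurotrophins, rose by 0.58 (adjusted p = 0.0587) and 0.52 (adjusted p = 0.0975, limma). Gab1, an adaptor behind growth factor receptors, changed by -0.40 (adjusted p = 0.00897) and -0.20 (adjusted p = 0.188, limma), and Stat3 by -0.11 (adjusted p = 0.895) and -0.56 (adjusted p = 0.328, limma). In SOD1G93A the ligand Ptn (pleiotrophin) fell by 0.49 (adjusted p = 0.0736) and Igfbp2 rose by 0.54 (adjusted p = 0.100, limma).

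For each gene with a called probe, the genes whose course over the 16 arrays lay nearest to its brightest probe were found by the root mean square distance of log2 ratios, centred and scaled to unit SD, among 15003 genes. They were Nt5c, Manbal and Zfp12 for Bdnf (distances 0.56 to 0.59, median of all genes 1.36), and Timp3, Fam241b and Gria1 for Ngfr (0.50 to 0.56, median 1.33). For the brightest Ntrk2 probe, A_51_P516006, which was itself not called in any comparison, they were Ager, Nrm and AK031889 (0.52 to 0.62, median 1.38), and for the brightest Vegfa probe, A_52_P638895, AK078302, Ylpm1 and Pdgfc (0.53 to 0.60, median 1.40). These distances describe likeness and have no test.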

How the data were processed

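The data were 16 2-colour Agilent 4x44K arrays, 4 for each of 4 groups. The deposited spot intensity values came, per the submitters' processing notes, from Agilent Feature Extraction 9.5.3.1. The authors' value table holds log2 Cy3 values, normalized separately at each age (array medians about 6.40 and 6.09), and served as an alternative within an age. Groups came from the sample labels, which call the arrays of a group biological replicates.

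Median signals were corrected with limma 3.58.1 (R 4.3.3) by normexp with an offset of 50, normalized by loess within arrays and Aquantile between them, and expressed as log2 Cy3 over Cy5. Local backgrounds more than 20 units above their spot were first set to the array median. Control and outlier spots were left out, and spots of a probe were averaged. Tested probes had Cy3 well above background on at least 3 of 4 arrays of a group and a value on at least 2 arrays per group. Genotype changes were fitted on the 8 arrays of an age, other comparisons on all 16, with lmFit and eBayes, two-sided. A call is an unadjusted p under 0.05, as in the study's methods, with Benjamini-Hochberg adjusted values beside it. Permutation tests were two-sided and exact for groups (4900 relabellings for the difference between ages). Marker correlations used 100000 resamples (scipy 1.17.1). The number of arrays limits the precision. The fitting code was tested on simulated data.

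The members, the gene lists and the markers were chosen with earlier results of these data known. Named genes were every member, the list genes called for genotype and, at most, the gene of largest change of each list in a comparison. For list genes the brightest probe was used. Probes were named as in the files, with symbols updated through RefSeq by accession for 22951 and by name for 9768 of 41174 probes. Alternatives were other background, offset, normalization, filter, weight and spread settings, the Cy3 channel alone, Feature Extraction processed signals, the replicate number (the slide) as a block, and each array left out. Leaving out together the arrays with reset backgrounds was chosen after seeing the data. The values of 1 marker list and the sequence of 1 probe are not reported here.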

Additional observations from a re-analysis of the deposited data

Results flagged for a closer look

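In 3 of the 56 groups of 4 arrays checked (14 probes in 4 groups), 1 array stood far from the other 3, where chance gives about 1 in 20. The read-through probe A_52_P578538 read 0.48 on SOD1G93A 40 days replicate 4, and the nearest array of its group read 0.21. Igf1 A_51_P147942 read -0.59 on SOD1G93A 80 days replicate 4, against -1.16 on the nearest. Igf1 A_52_P536434 read -1.25 on wild-type 40 days replicate 4, against -0.87 on the nearest.

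The genotype change differed between the ages in a test of the difference for Vegfa A_52_P249424 (-0.46, limma p = 0.000271, exact permutation p = 0.000816) and for Bdnf A_51_P261991 (-0.32, limma p = 0.0333, exact permutation p = 0.0380). Neither passed adjustment over all probes.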

How the results depend on the processing

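With the replicate block, which is the slide, 2 member probes were called at 80 days in place of 1, 3 for the difference between ages in place of 2 and 3 for age in wild-type in place of 2, while the numbers at 40 days and for age in SOD1G93A were 2 and 3 with and without it. Arrays of 1 slide deviated together little (mean correlation 0.028, from -0.141 to 0.232 over 24 pairs), so the block is an alternative only.

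Member probes called at 40 days were 5 with array weights, 0 with local backgrounds as deposited, and 1 without normalization within arrays, with the spread on all 16 arrays or from the authors' table. At 80 days they were 0 with local backgrounds as deposited or without normalization within arrays, and 2 with the arrays of reset backgrounds left out together. For the difference between ages they were 4 with Feature Extraction processed signals, and 1 with array weights, with local backgrounds as deposited or without normalization. For age in wild-type they were 0 with array weights, and 1 with Cy3 alone, without normalization or with the arrays of reset backgrounds left out. For age in SOD1G93A they were 1 without normalization.

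Of all probes, 953 were called at 40 days (520 higher), against 554 (389 higher) with Cy3 alone, 1615 (1395) with processed signals, 247 (99) with backgrounds as deposited, 1881 without the filter and 538 (361) from the authors' table. At 80 days, 1481 became 2388 with array weights and 2412 without the filter, and for age in wild-type 3306 became 5004 without the filter. For the difference between ages, 1466 (683 higher) became 797 with backgrounds as deposited, 2459 without the filter and 4308 (4290 higher) without normalization, which moved the median of all probes by 0.20. The share of higher calls moved most without normalization, to 7 of 1260 at 40 days, 2127 of 2197 at 80 days, 60 of 3973 for age in wild-type and 2514 of 2753 for age in SOD1G93A, where the median of all probes was -0.12, 0.08, -0.11 and 0.08. With processed signals it was 540 of 1518 at 80 days, 415 of 2145 for the difference between ages, and 2255 of 3757 and 1311 of 3767 for age in wild-type and SOD1G93A.

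Leaving out 1 array gave 1 to 6 member probes at 40 days, 0 to 2 at 80 days, 1 to 3 for the difference between ages and 0 to 3 for age in wild-type, and 715 to 1893 and 974 to 1846 of all probes at 40 and 80 days. The lowest number of all probes at 80 days was that without SOD1G93A replicate 3, and 0 member probes were called there without SOD1G93A replicate 1 or wild-type replicate 3. Without normalization within arrays the full-length Ntrk2 probe A_51_P393454 at 40 days turned to -0.0076, where the median of all probes was also lower. With processed signals the Bdnf difference A_51_P261991 minus A_52_P384100 between ages turned from -0.27 to 0.33. The cause was not tested. Dim probes (Bdnf, Igf1, Ngfr and Vegfa A_52_P249424) lie close to background, which limits their precision.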
